A study of Mus musculus with 2 samples.

Results

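The genes described here build the presynaptic release machinery, the proteins that fill, dock, fuse and recycle synaptic vesicles. They are 41 genes chosen by symbol, from SNAREs, synaptotagmins, vesicle proteins, active zone proteins and vesicular glutamate transporters, and all 41 have a row among the 23282 rows of the count tables. These genes and the gene lists set beside them were chosen with earlier results of these data known. RNA came from dorsal root ganglia of wild-type (WT) mice, the ganglia that hold the cell bodies of sensory neurons. In the AEW group the treatment was acetone, ether and water on 5 days in a row, a chemical model of dry-skin itch, and ganglia were taken on day 6. The control group received water. RNA of 6 mice was pooled per group and each pool is read here as 1 library, so no difference below has a replicate check and no p-value was computed. Age, sex and strain are not given in the labels.

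A synaptic vesicle fuses when a vesicle SNARE zips up with SNAREs of the plasma membrane. Synaptotagmins sense the calcium that enters with an action potential, complexins hold and then release the SNARE complex, and scaffolds of the active zone keep vesicles close to calcium channels. In sensory neurons these proteins are made in the ganglion and act mainly far away, at the central terminals in the spinal cord, where the neurons release glutamate and peptides. Transcript counts from ganglia therefore describe the cell bodies and not the terminals.

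The AEW library held 14376228 counts and the control library 9333882. Levels are scaled CPM, counts divided by the TMM-scaled library size and multiplied by 1000000, and each AEW over control ratio has a 95% interval that covers counting error only. A gene with at least 20 counts in the sum of both libraries was measured. It was called higher or lower when its ratio reached 1.5-fold in either direction and its interval excluded 1. The labels name neurons as the cell type. Sensory neuron markers were present in both libraries, with Prph at 24611 counts in AEW and 8296 in control and Avil at 7128 and 1846, but so were markers of Schwann cells, fibroblasts, muscle and red blood cells, and the last took 4.32% of AEW counts and 6.79% of control counts. In bulk tissue, fewer cells of a type and less RNA per cell cannot be told apart.

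All 41 release genes were measured, with 81 to 48665 counts in the sum of both libraries. Of these, 26 were called higher in the AEW library, 1 was called lower and 14 were neither. Over all 14854 measured genes the share called was 17.3% for higher and 14.9% for lower, against 63.4% and 2.44% of the release genes. The median log2 ratio was 0.72 for the release genes and 0.03 for all measured genes. The direction was shared widely, with a ratio above 1 for 37 genes and below 1 for 4. Together the 41 genes took 1.03% of AEW counts (exact binomial interval 1.03 to 1.04) and 0.596% of control counts (0.591 to 0.601). Sncg and Syt11 supplied many of these counts, and without them the shares were 0.594% and 0.372%.

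**Figure D1:**
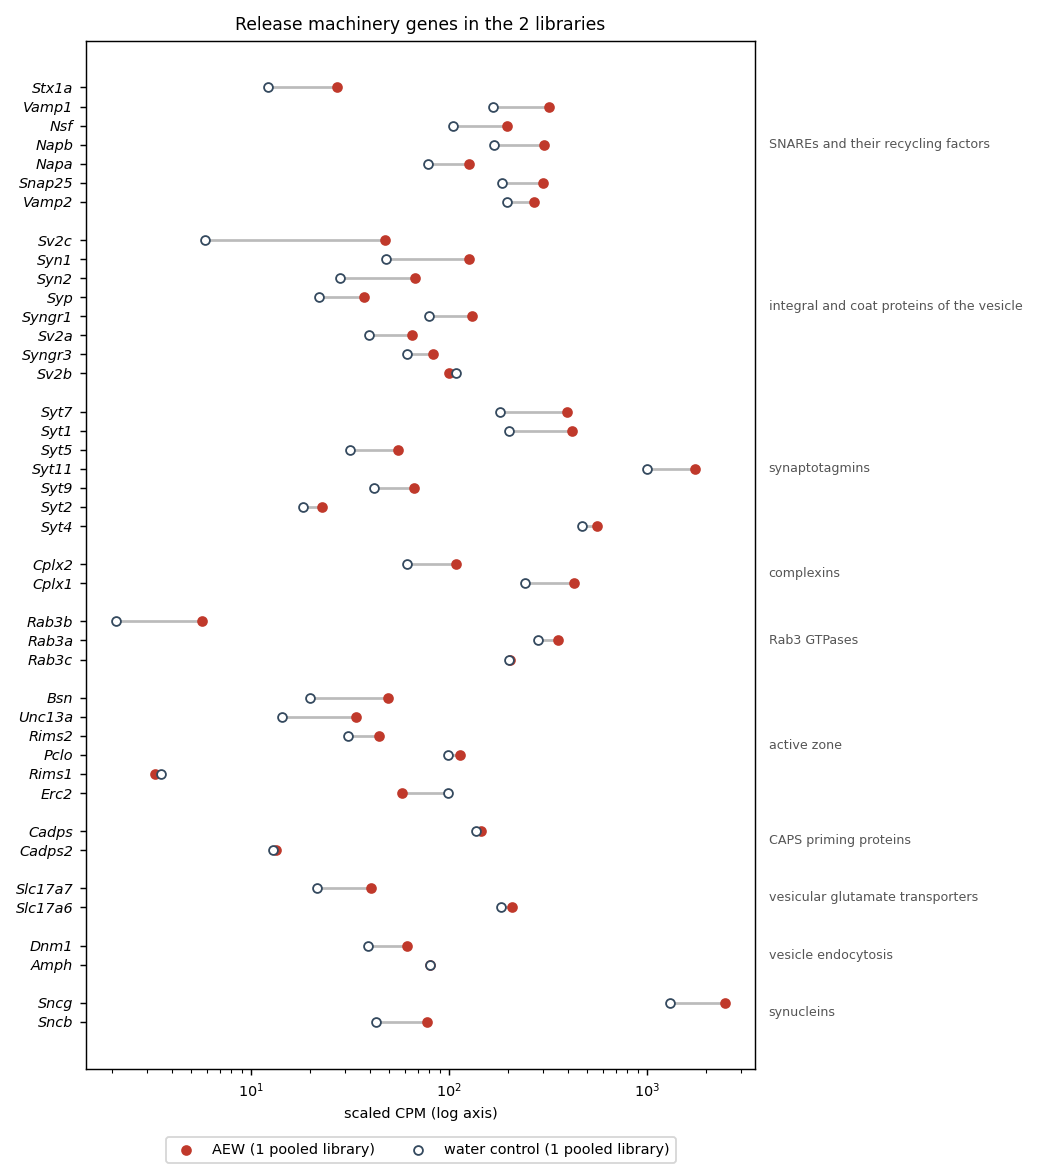
Scaled CPM (log axis) of each release gene in the AEW library (filled) and the control library (open), grouped by role. The AEW point lies to the right for 37 of the 41 genes, and the widest gap is that of Sv2c, at 47.6 CPM in AEW and 5.85 CPM in control.

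The same genes were close to other neuronal transcripts. A list of 23 pan-neuronal markers that holds no release gene had 12 members called higher, none called lower and 11 neither. Their median log2 ratio was 0.78. When the libraries were scaled so that the median of this list was 0, the median log2 ratio of the release genes was -0.06, and 2 of the 41 were called higher and 9 lower. On that scale 3.64% of all measured genes were called higher and 58.9% lower. The release genes called higher on that scale were Sv2c and Syn1. Others lay above the median of the neuronal markers without a call, such as Rab3b (log2 ratio 0.65) and Bsn (0.53). Those called lower were Sv2b, Rab3c, Rims1, Pclo, Erc2, Cadps, Cadps2, Slc17a6 and Amph. Others lay below that median without a call, such as Syt4 (-0.54) and Syt2 (-0.47). The markers themselves spread about their median, with 2 of 23 called higher and 6 lower on the same scale. How much of the difference of the whole set follows the share of neuronal RNA was not tested beyond this scaling.

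Other settings kept most of the calls. The number called higher was 26 with DESeq2 size factors (16.9% of all measured genes) and with upper quartile scaling (16.2%). It was also 26 with total counts that left out Rn45s, haemoglobin, skin and hair genes (18.2%). The number was again 26 with AEW counts thinned down to the control depth (16.8%). It was 27 with plain total counts (20.4%). The lower call was Erc2 in each. The share of all measured genes called lower ran from 12.3% with plain total counts to 16% with upper quartile scaling. When the interval had to exclude 1.5-fold, 21 were called higher and 1 lower, against 8.93% and 7.21% of all genes. At 2-fold, 9 were higher and none lower, against 8.23% and 6.85%.

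Sequence around the start of 3 genes is shown because 2 of them, Syn1 and Unc13a, carry the left part of RE1, the element bound by REST, a repressor that keeps many presynaptic genes silent outside neurons, and because the third, Sv2c, had the largest ratio of the set. Sequences are RefSeq windows on GRCm38.p6, written from 5′ to 3′ on the strand named. For Syn1 the stretch runs from 250 to 101 bases before the start (chrX:20921019-20921168, minus strand), with the left part of RE1, TTCAGCACC, and the cAMP response element TGACGTCA in capitals.
Syn1: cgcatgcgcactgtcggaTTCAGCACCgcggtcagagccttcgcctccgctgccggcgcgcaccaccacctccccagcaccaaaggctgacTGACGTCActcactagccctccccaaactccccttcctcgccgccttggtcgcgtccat
For Unc13a the match lies on the strand opposite to the gene, 23 bases after the start at its near end (chr8:71671727-71671756, plus strand), and 30 bases are shown with the same letters in capitals.
Unc13a: TTCAGCACCgggggcgcggacagcgcctga
For Sv2c the 150 bases before the start are shown (chr13:96132578-96132727, minus strand), with GC boxes, GGGCGG read on the other strand, in capitals.
Sv2c: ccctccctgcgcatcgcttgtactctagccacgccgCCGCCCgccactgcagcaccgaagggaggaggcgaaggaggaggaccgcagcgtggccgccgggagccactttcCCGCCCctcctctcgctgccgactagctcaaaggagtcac

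Windows of 300 bases, 250 before to 50 after the start, were found for 34 of the 41 genes, as 42 windows. TTCAGCACC, searched on both strands, lay in 2 of them (4.76%) and in 0.371% of all 32851 windows. TGACGTCA lay in 2 (Syn1 and Napa) and in 1.79% of all windows, and GGGCGG in 66.7% of the release gene windows and 35.7% of all windows. The rest of RE1 was not searched for, so the capitals do not show whether it follows in Syn1 and Unc13a. The letters are a description of these windows. They do not show that a factor binds there, and nothing about REST follows from windows without them.

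The SNARE core was higher nearly throughout. Stx1a, the syntaxin of the presynaptic membrane (ENSMUSG00000007207.10, chromosome 5, 135023482 to 135051100, plus strand of mm10), had 403 counts in AEW and 111 in control, a ratio of 2.22 (95% counting interval 1.79 to 2.76). Snap25, its membrane SNARE partner, had 4431 and 1687 counts, a ratio of 1.60 (1.52 to 1.70). The vesicle SNARE has 2 main forms in neurons. Vamp1 (synaptobrevin 1) had 4741 counts in AEW and 1520 in control, a ratio of 1.91 (1.80 to 2.02), and was called higher. Vamp2 (synaptobrevin 2) had 4003 counts in AEW and 1780 in control, a ratio of 1.37 (1.30 to 1.45), and was not. After fusion the SNARE complex is pulled apart by the ATPase NSF and its SNAP adaptors, and their genes differed in the same direction. Nsf had a ratio of 1.87 (1.74 to 2.02) at 2919 AEW and 953 control counts, Napb one of 1.78 (1.68 to 1.89) at 4490 and 1542, and Napa one of 1.61 (1.475 to 1.76) at 1880 and 714. In all, 6 of these 7 genes were called higher and none lower, with a median log2 ratio of 0.83. That is close to the 0.78 of the pan-neuronal markers, and scaled on those markers none of the 7 was called.

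**Figure D2:**
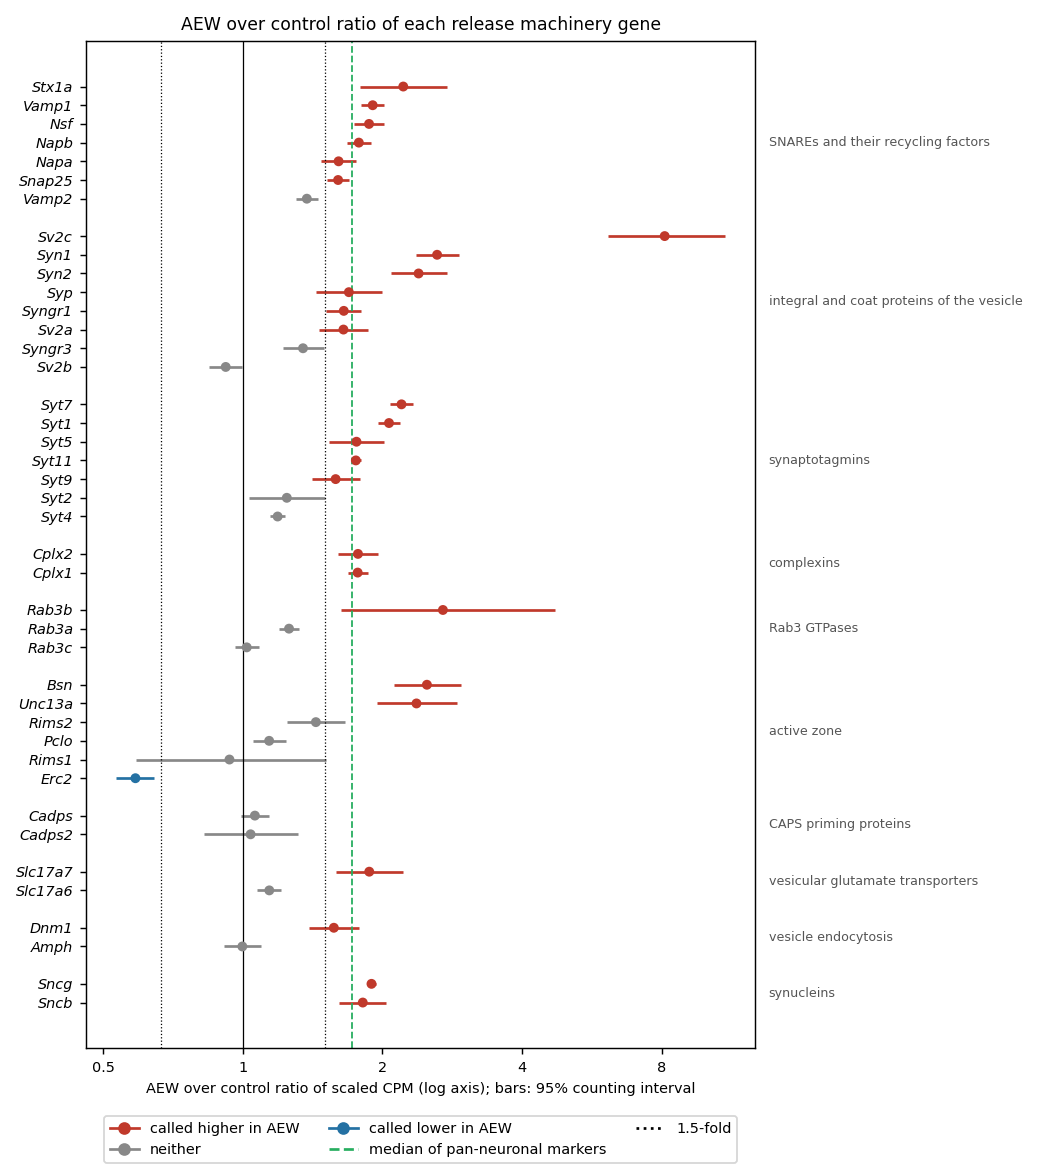
AEW over control ratio of scaled CPM for each release gene (log axis), with bars for the 95% counting interval, in red where called higher, blue where called lower and grey where neither. Dotted lines mark 1.5-fold in each direction and the dashed line the median of the pan-neuronal markers, and Sv2c at 8.13 and Erc2 at 0.59 lie at the ends.

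Among proteins carried by the vesicle itself were Sv2c, with the largest ratio of the 41 genes, and Sv2b, with 1 of the 4 ratios below 1. Sv2c, one of the SV2 glycoproteins that botulinum neurotoxin A uses to enter neurons (ENSMUSG00000051111.16, chromosome 13, 95954594 to 96132577, minus strand), had 705 counts in AEW and 53 in control, or 47.6 and 5.85 CPM, a ratio of 8.13 (6.14 to 10.96). Its relatives did not share this difference. Sv2a had 963 and 357 counts, a ratio of 1.65 (1.46 to 1.87), and Sv2b 1482 and 986 counts, a ratio of 0.92 (0.85 to 0.996). Sv2c was the 1 release gene that lay over 3 scaled median absolute deviations away from 500 genes of like mean expression, where 1.35% of all measured genes were called higher and 0.66% lower, and the 1 called higher under every setting tried. By the lower bound of its ratio it was number 178 of all measured genes, and 75 of those at or above it were keratin, cornified envelope or other skin and hair symbols. All 14 measured skin and hair markers were called higher, with a summed level of 1013 CPM in AEW and 35.2 CPM in control, where Krt35 was at 0. Their part in the Sv2c counts was not tested.

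The synapsins, phosphoproteins that tether vesicles in the reserve pool, followed as a pair. Syn1 (ENSMUSG00000037217.15, chromosome X, 20860511 to 20921004, minus strand), whose RE1 part and cAMP response element are shown above, had 1877 counts in AEW and 437 in control, a ratio of 2.62 (2.36 to 2.92). Syn2 had 1003 and 256 counts, a ratio of 2.39 (2.08 to 2.76). Both stood above the pan-neuronal median of 0.78 on the log2 scale, Syn1 at 1.39 and Syn2 at 1.26. The membrane proteins synaptophysin and synaptogyrin 1 differed less. Syp had 557 and 201 counts, a ratio of 1.69 (1.44 to 1.999), Syngr1 had 1948 and 721 counts, a ratio of 1.65 (1.51 to 1.80), and Syngr3 had 1229 and 557 counts, a ratio of 1.35 (1.22 to 1.49) that was not called. Of the 8 vesicle protein genes, 6 were called higher and none lower. Part of the annotated exons of Syp (16.8%) overlaps Gm14703 on the other strand, and no source used here says whether counting used strand, so reads of the pair cannot be told apart.

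Among synaptotagmins, 5 of 7 were called higher and none lower. Syt1, the fast calcium sensor of most forebrain synapses, had 6200 counts in AEW and 1833 in control, a ratio of 2.07 (1.96 to 2.18). Syt7, a slower sensor with high calcium affinity, had 5895 and 1638 counts, a ratio of 2.20 (2.08 to 2.32). Syt2, the fast sensor of many hindbrain and spinal synapses, had 340 and 167 counts, a ratio of 1.24 (1.03 to 1.51), and was not called. The 2 ratios above 2 were thus those of Syt1 and Syt7, and the interval of Syt2 lay wholly below theirs. Syt11, which does not act as a calcium sensor, had 25964 and 9050 counts, a ratio of 1.75 (1.71 to 1.80), while Syt4, which is found on dense-core vesicles, had 8296 and 4265 counts, a ratio of 1.19 (1.15 to 1.23). Syt5 at 826 and 287 counts (1.76, 1.54 to 2.02) and Syt9 at 986 and 380 counts (1.59, 1.41 to 1.79) were also called higher. Exons of Syt4 (14.5%) and Syt7 (5.13%) overlap genes on the other strand, with the limit given for Syp.

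The complexins had nearly equal ratios. Cplx1 had 6366 counts in AEW and 2199 in control, a ratio of 1.77 (1.68 to 1.86), and Cplx2 had 1612 and 556 counts, also 1.77 (1.61 to 1.95). The Rab3 GTPases, which bind vesicles and recruit RIM proteins, did not have a common ratio. Rab3a had 5280 and 2565 counts, a ratio of 1.26 (1.20 to 1.32), and Rab3c had 3040 and 1822 counts, a ratio of 1.02 (0.96 to 1.08). The one called higher was Rab3b, at 84 counts in AEW and 19 in control, a ratio of 2.70 (1.63 to 4.71). It rests on the second lowest counts of the set, and 9.0% of its exon bases overlap a gene on the other strand.

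Active zone genes went in both directions, with 2 of 6 called higher, 1 lower and 3 neither. Bsn, the giant scaffold bassoon (ENSMUSG00000032589.14, chromosome 9, 108096022 to 108190384, minus strand), had 735 counts in AEW and 180 in control, a ratio of 2.49 (2.12 to 2.95). Unc13a, which encodes the priming factor Munc13-1 and carries the RE1 part shown above (ENSMUSG00000034799.16, chromosome 8, 71624417 to 71671757, minus strand), had 504 and 130 counts, a ratio of 2.37 (1.95 to 2.89). Erc2, the ELKS family scaffold CAST (ENSMUSG00000040640.11, chromosome 14, 27622428 to 28478537, plus strand), was the 1 release gene called lower, with 860 counts in AEW and 896 in the smaller control library, or 58.0 and 99.0 CPM, a difference of 1.71-fold (1.55 to 1.87). Erc2 was called lower under each scaling and GC correction, but not at 2-fold and not beyond 3 deviations. The large scaffold piccolo and the RIM proteins were neither. Pclo had 1684 and 903 counts, a ratio of 1.14 (1.05 to 1.24), Rims2 had 661 and 281 counts, a ratio of 1.44 (1.25 to 1.66), and Rims1 had 49 and 32 counts, a ratio of 0.94 (0.59 to 1.51), too few to exclude a 1.5-fold difference. Exons of Unc13a (3.92%) and Pclo (1.91% and 2.21%, for 2 genes) overlap genes on the other strand, with the limit given for Syp.

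The CAPS proteins, which prime dense-core vesicles for peptide release, differed little. Cadps had 2170 counts in AEW and 1249 in control, a ratio of 1.06 (0.99 to 1.14), and Cadps2 had 199 and 117 counts, a ratio of 1.04 (0.82 to 1.32). Both intervals lie within 1.5-fold of 1. Of the endocytosis genes, the vesicle-cutting GTPase Dnm1 had 913 and 355 counts, a ratio of 1.57 (1.39 to 1.78), and was called higher. Its binding partner Amph had 1195 and 732 counts, a ratio of 0.997 (0.91 to 1.09). The synucleins were both higher, with Sncg, a protein abundant in sensory neurons, at 36797 and 11868 counts and a ratio of 1.89 (1.86 to 1.93), and Sncb at 1155 and 389 counts and a ratio of 1.81 (1.62 to 2.04).

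Glutamate is loaded into vesicles by VGLUT2, the form in most sensory neurons, and by VGLUT1, known from large myelinated neurons. Slc17a7, the VGLUT1 gene (ENSMUSG00000070570.5, chromosome 7, 45163949 to 45176142, plus strand), had 601 counts in AEW and 196 in control, a ratio of 1.87 (1.59 to 2.21), and was called higher. Slc17a6, the VGLUT2 gene (ENSMUSG00000030500.6, chromosome 7, 51622006 to 51671119, plus strand), had 3100 and 1661 counts, a ratio of 1.14 (1.07 to 1.21). Markers of large myelinated neurons were called higher in 5 of 15 and lower in none, with a median log2 ratio of 0.10, and those of peptidergic nociceptors in 3 of 10 and none, with a median of 0.34. Markers of non-peptidergic nociceptors were called higher in 6 of 9 measured and lower in none, with a median of 0.82. The part of any neuron class in these differences was not tested.

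**Figure D3:**
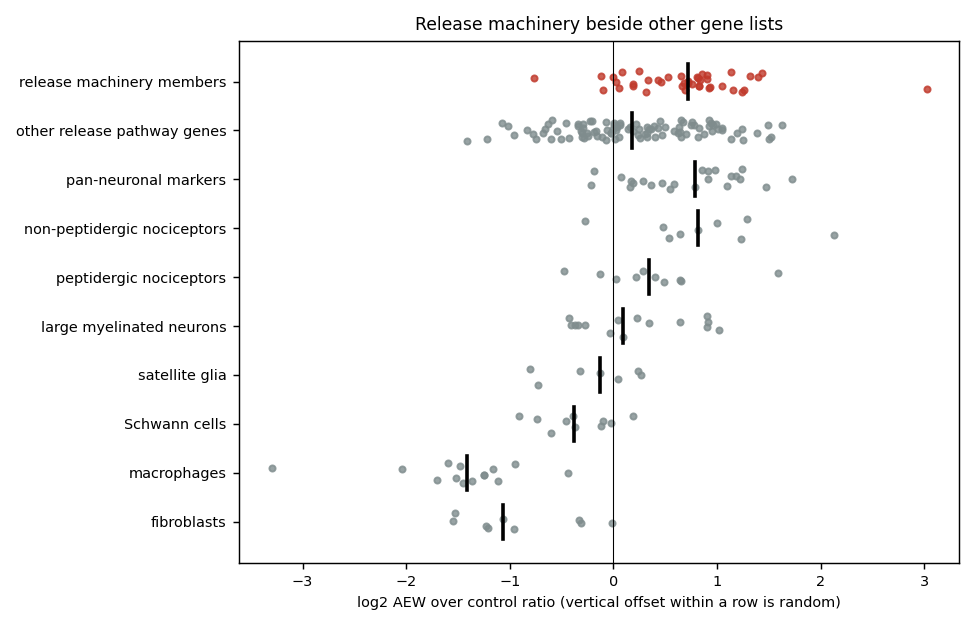
Log2 AEW over control ratio of each measured gene (points) and the median (bar) for the release genes, other release pathway genes, neuronal markers and markers of glia, macrophages and fibroblasts. The release genes (median 0.72) lie near the pan-neuronal markers (0.78), while macrophage (-1.41) and fibroblast (-1.06) markers lie below 0.

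The balance within pairs of related genes does not depend on how the libraries are scaled. For 17 pairs of release genes the count ratio of one to the other was compared between the libraries, with an exact 95% conditional interval for counting error. The interval excluded 1 for 11 pairs and lay wholly beyond 1.5-fold for 5, namely Sv2c to Sv2b, Sv2c to Sv2a, Sv2a to Sv2b, Bsn to Pclo and Rab3b to Rab3c. With AEW counts thinned down to the control depth, 3 of the 5 still lay wholly beyond it, and Sv2a to Sv2b and Rab3b to Rab3c did not. The SV2 pairs share their genes and are not separate results. No share over pairs drawn from all measured genes was computed, so these counts have no baseline. The 17 pairs were chosen together with the gene lists, with earlier results of these data known. In the SV2 family, Sv2c supplied 32.2% of the summed Sv2c and Sv2b counts in AEW and 5.10% in control, a ratio of ratios of 8.85 (6.60 to 12.1). Sv2a to Sv2b was 1.79 times higher in AEW (1.55 to 2.08), so the 3 relatives had 3 different ratios. Bsn to Pclo was 2.19 times higher (1.82 to 2.64) and Slc17a7 to Slc17a6 1.64 times (1.38 to 1.96). Vamp1 supplied 54.2% of the Vamp1 and Vamp2 counts in AEW and 46.1% in control, a ratio of ratios of 1.39 (1.28 to 1.504), and Syt2 to Syt1 had one of 0.60 (0.49 to 0.73). These are shares of reads and are not corrected for transcript length. Some pairs kept their balance within narrow limits, with Cplx1 to Cplx2 at 0.999 (0.89 to 1.11) and Sncg to Sncb at 1.04 (0.93 to 1.17). Napb to Napa was at 1.11 (0.995 to 1.23). Intervals that included 1 were wider for Syn1 to Syn2 (1.10, 0.92 to 1.31) and Cadps to Cadps2 (1.02, 0.80 to 1.30). Rims1 to Rims2 had a wide interval (0.65, 0.40 to 1.07). The interval excluded 1 for Rab3a to Rab3c (1.23, 1.14 to 1.33) and Syngr1 to Syngr3 (1.22, 1.07 to 1.40). It also did so for Rab3a to Rab3b (0.47, 0.27 to 0.78), which rests on low Rab3b counts.

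**Figure D4:**
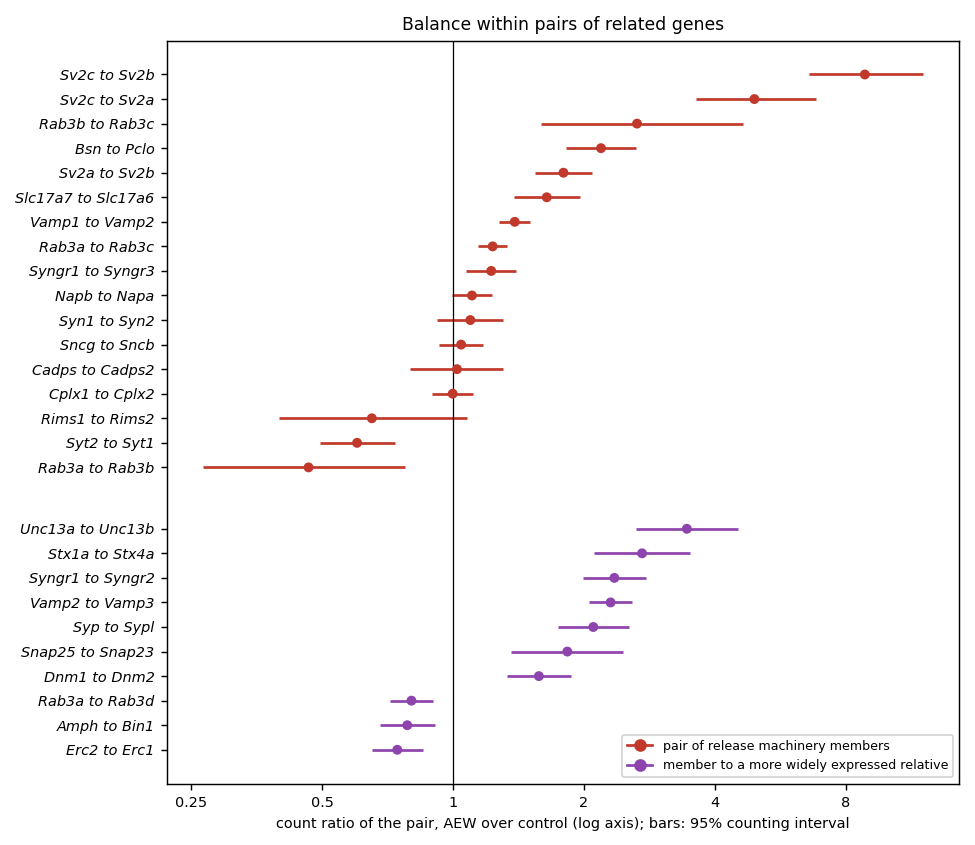
Count ratio of the first to the second gene of a pair, AEW over control (log axis), with 95% counting intervals, for 17 pairs of release genes (red) and 10 pairs of a release gene with a more widely expressed relative (purple). Sv2c to Sv2b at 8.85 lies farthest right, and the ratio of Cplx1 to Cplx2 is 0.999.

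Relatives of the release genes that many other cell types also use mostly had lower ratios. This set of 10 pairs was chosen after the values were seen and is a description. The release gene had the higher ratio of the 2 in 7 pairs and the lower in 3, and no interval included 1. Exons of Erc1 (11.8%), Bin1 (6.22%), Stx4a (5.25%), Unc13a (3.92%) and Dnm2 (3.88%) overlap genes on the other strand, and those of Syngr2 (7.66%) a gene on the same strand. Unc13a to Unc13b was 3.45 times higher in AEW (2.64 to 4.51), Stx1a to Stx4a 2.72 times (2.12 to 3.51), Syngr1 to Syngr2 2.35 times (1.99 to 2.77) and Vamp2 to Vamp3 2.30 times (2.06 to 2.58). Syp to Sypl (2.10), Snap25 to Snap23 (1.83) and Dnm1 to Dnm2 (1.58) had the same direction. Going the other way were Rab3a to Rab3d at 0.80 (0.72 to 0.90), Amph to Bin1 at 0.79 (0.68 to 0.91) and Erc2 to Erc1 at 0.74 (0.65 to 0.85). Macrophage markers were called lower in 13 of 14 and fibroblast markers in 6 of 9, with summed levels of 337 CPM in AEW and 898 CPM in control for macrophages and 7223 and 15043 CPM for fibroblasts, and no marker of either list was at 0. Their part in these pairs was not tested.

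A wider list of 113 other genes of the release pathway had 98 measured, of which 31 were called higher, 12 lower and 55 neither. That is 31.6% and 12.2%, against 17.3% and 14.9% of all measured genes. The median log2 ratio was 0.18. By the rule for named genes, the highest were Pacsin1, Syt6, Syt3 and Apba1. Pacsin1, a neuronal membrane-bending protein of endocytosis, had 2509 counts in AEW and 543 in control, a ratio of 2.82 (2.57 to 3.10). The synaptotagmins Syt6 and Syt3 had 501 and 109 counts (2.81, 2.28 to 3.49) and 238 and 47 counts (3.09, 2.25 to 4.33), and the active zone adaptor Apba1 (Mint1) had 5271 and 1413 counts (2.28, 2.15 to 2.42). Of the genes named from this list, Slc32a1 shares 24.9%, Syt6 8.67% and Apba1 4.20% of exon bases with genes on the other strand. The lowest were Slc32a1, Rab3il1, Picalm and Lin7c. Slc32a1, the vesicular transporter of inhibitory neurons, had 48 and 78 counts, 2.66-fold lower (1.83 to 3.89), and Rab3il1 had 61 and 87 counts, 2.33-fold lower (1.66 to 3.29). Slc32a1 is also 1 of 11 measured spinal cord markers, of which 4 were called lower and none higher, and the part of such tissue was not tested. Picalm, a clathrin adaptor used in most cells, was 1.71-fold lower (1.63 to 1.80) and Lin7c 1.78-fold (1.62 to 1.96).

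The ratio of the release genes moved with the base composition of their transcripts. The 26 genes called higher had a median GC content of 54.8% in their longest coding transcript (43.4 to 61.4), and the 14 that were neither had a median of 48.9% (40.7 to 57.0). Across the 41 genes, which share the same 2 libraries, Spearman's rho between GC content and log2 ratio was 0.46 and Pearson's r 0.33, or 0.51 for r without Sv2c. Across 14176 measured genes rho was 0.24. After the trend over all genes was subtracted, 25 release genes were still called higher (17% of all genes) and 1 lower, and Dnm1 was no longer called. With the trend on the last 500 bases the number called higher was 24 (16.9% of all genes), and Dnm1 and Syp were not called. Sv2c had a log2 ratio of 3.06 after the first correction and 3.02 after the second, against 3.02 before.

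**Figure D5:**
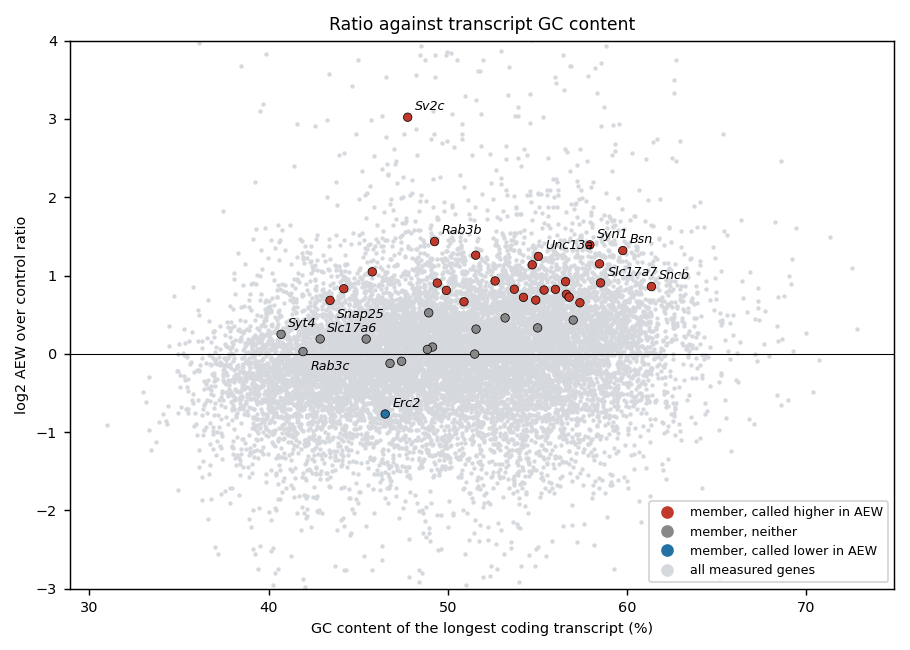
Log2 AEW over control ratio against the GC content of the longest coding transcript for the release genes (coloured by call) and all measured genes (light grey, drawn between log2 ratios of -3 and 4). The release genes called higher lie mostly at higher GC content, with a median of 54.8%, but Sv2c, the highest, is at 47.8%.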

How the data were processed

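Each deposited file gives the authors' raw count of reads for every gene symbol. Bowtie2, bedtools and the mm10 build are named in the submitters' processing notes, and the labels' protocols name Trizol and a Lexogen QuantSeq kit. No source used here gives versions, annotation, strand use or the treatment of duplicates and multiple matches. The 79 rows with duplicated symbols (0.196% of AEW and 0.186% of control counts) stayed in the totals and were left out of calls.

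TMM factors were computed by edgeR 4.0.16 in R 4.3.3 (1.03 for AEW and 0.970 for control). Ratio intervals are exact conditional binomial (Clopper-Pearson), pair intervals exact conditional. They cover counting error only and take each read as independent. Reads without molecular identifiers are not independent molecules, so the intervals may be too narrow. No test was made, as each group is 1 library. Coordinates and transcripts are from GENCODE M21 (mm10, 1-based). GC trends were fitted by lowess over measured genes. Named genes are all members, members of described pairs, the 4 highest and 4 lowest other pathway genes by interval bound with at least 50 counts, and up to 2 markers per cell type. Members and lists were chosen with earlier results of these data known. Of 268 other listed symbols, 1 had no row and 1 matched an older symbol.

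Alternatives were DESeq2 1.42.0 size factors, other scalings, filters and call rules, thinning, scaling on pan-neuronal markers and GC corrections. The GC correction on the last 500 bases, the deviation limit and the pairs with widely expressed relatives were added after seeing the data.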

Additional observations from a re-analysis of the deposited data

How the results depend on the processing

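No paired analysis was possible because each group is 1 pooled library. The number of release genes called higher was 24 to 27 under DESeq2, total count, upper quartile and reduced total count scaling, no filter, a summed count of at least 100, thinning of the AEW library and both GC corrections, and 21 when the interval had to exclude 1.5-fold, with 1 called lower in each. Total count scaling alone moved the median of all genes to 0.11 on the log2 scale. At 2-fold, 9 were called higher and 0 lower. With the limit of 3 deviations, 1 was called higher, Sv2c, and 0 lower. Scaled on the pan-neuronal list, which moved the median of all genes to -0.76, 2 were called higher and 9 lower, and the median log2 ratio of the release genes changed sign to -0.062. Under that scaling the log2 ratio also changed sign for Snap25 (-0.10), Napa (-0.10), Syp (-0.025), Sv2a (-0.064), Syngr1 (-0.062), Syt9 (-0.12), Dnm1 (-0.13), Rab3c (-0.76), Pclo (-0.60), Cadps (-0.70), Cadps2 (-0.73) and Slc17a6 (-0.60), and for genes called neither way on both scales, Vamp2 (-0.33), Syngr3 (-0.35), Syt2 (-0.47), Syt4 (-0.54), Rab3a (-0.45) and Rims2 (-0.26). That scaling subtracts the same 0.78 from every log2 ratio. Of the other pathway genes, 4 were higher and 48 lower under pan-neuronal scaling, 12 and 4 at 2-fold, and 1 and 0 with the deviation limit, and 5 were lower when the interval had to exclude 1.5-fold. Of the pan-neuronal markers, 2 were higher and 6 lower when scaled on themselves, 7 higher at 2-fold and 1 with the deviation limit. Over all measured genes, 3.64% were called higher and 58.9% lower under pan-neuronal scaling, and 8.23% and 6.85% at 2-fold. These shares were 1.35% and 0.66% with the deviation limit, and 8.93% and 7.21% when the interval had to exclude 1.5-fold. With AEW counts thinned down to the control depth, the ratios within pairs stayed inside their intervals, but Sv2a to Sv2b (1.74, 1.48 to 2.05) and Rab3b to Rab3c (2.27, 1.30 to 4.11) no longer lay wholly beyond 1.5-fold, which left 3 of 5 pairs. Depth limits Rims1 and Rab3b most, at 81 and 103 counts in the sum of both libraries.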

Other observations

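The proton pump that energizes vesicle loading was not described above. Of 6 V-ATPase subunits in the wider list, picked out after their values were seen, 5 were called higher and 1 was neither. Atp6v1g2, the neuronal form of the G subunit, which shares 5.74% of exon bases with Nfkbil1 on the other strand, had 1228 counts in AEW and 341 in control, a ratio of 2.20 (1.95 to 2.49). Atp6v1b2 had 7973 and 2511 counts, a ratio of 1.94 (1.85 to 2.03), and Atp6v0d1 had 1611 and 536 counts, a ratio of 1.84 (1.66 to 2.03). The exception was Atp6v0c, the membrane ring subunit, at 5072 and 3707 counts and a ratio of 0.84 (0.80 to 0.87). The pump also acidifies lysosomes in every cell type.

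Among the other vesicular transporters in the list, Slc17a8, the gene of the glutamate transporter VGLUT3, found in C-fibre touch neurons, had 60 counts in AEW and 14 in control, a ratio of 2.62 (1.45 to 5.07). Slc18a2, the monoamine transporter, had 119 and 58 counts, a ratio of 1.25 (0.91 to 1.75), and Slc18a1, its relative, had 15 and 9 counts, a ratio of 1.02 (0.42 to 2.64). Slc6a17, an amino acid transporter of vesicles, had 299 and 94 counts, a ratio of 1.94 (1.54 to 2.48). Below the limit for a measured gene were Slc17a9, the nucleotide transporter, at 1 and 15 counts, and Slc18a3, the acetylcholine transporter, at 0 and 7 counts. Rph3a, a Rab3 effector on vesicles, had 1959 and 578 counts, a ratio of 2.07 (1.89 to 2.28), and Scamp5, a vesicle membrane protein, had 1225 and 363 counts, a ratio of 2.06 (1.83 to 2.32).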
